A study of Homo sapiens with 6 samples.

Results

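Histone genes were followed in Kasumi-1 cells, both the replication-dependent genes of the histone clusters and the variant genes outside them. The members were the probe sets annotated to a gene whose current symbol starts with H1-, H2AC, H2BC, H2AZ, H2AX, H3C, H3-3, H4C or MACROH2A, or whose older symbol starts with HIST1H to HIST4H, H1F, H2AF or H3F. The rule found 82 of the 21357 genes named on the array, on 111 of its 54675 probe sets, and 24 of the 82 were named by shared probe sets alone. Of the 111 probe sets, 50 were annotated to 1 replication-dependent gene each (44 genes), 28 to 1 variant gene each (10 genes) and 29 to several genes at once. The other 4 were annotated to the pseudogenes H1-9P, H4C10P and H2AC5P and to the antisense RNA H1-10-AS1, none of which was bright enough to test. Shared probe sets are described apart, because their signal cannot be assigned to one gene.

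Kasumi-1 is an established human acute myeloid leukaemia cell line that carries the t(8;21) translocation. The cells were cultured for 24 h with vehicle (3 arrays) or with 20 nM HHT, homoharringtonine, a plant alkaloid that inhibits protein synthesis (3 arrays). All 6 samples were of 1 cell line, and no label states that arrays of a group are independent cultures, so the p-values reflect array-to-array spread that could be technical. Total RNA was amplified and labelled with a 3′ in vitro transcription kit and hybridised to Affymetrix arrays, and the deposited values are log2 signals.

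Nucleosomes hold a core of histones H2A, H2B, H3 and H4, and the linker histone H1 binds the DNA between them. Replication-dependent histone genes lie in clusters, are transcribed in S phase and give mRNAs that end in a stem-loop in place of a poly(A) tail. The stem-loop is bound by SLBP, and the mRNAs are degraded when DNA synthesis ends. Variant genes such as those of H2A.Z, macroH2A and the replacement form of H3 are expressed through the cell cycle from polyadenylated mRNAs, and H2AX gives both kinds of mRNA. Labelling of this type starts from poly(A), so a probe set of a replication-dependent gene may see mainly a polyadenylated minority of its transcripts; the part of this in the values below was not tested.

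The promoters of 5 members whose probe sets rose or fell are shown to set a replication-dependent arrangement beside a variant one. Each is the 250 bases before the annotated start in the RefSeq promoter table (GRCh38.p14), 5′ to 3′ on the gene's own strand. Capitals mark matches on either strand to TATAAA (the TATA box), CCAAT (the CCAAT box) and ATTTGCAT (the octamer). H2AC6 lies at chr6:26123922-26124171 on the plus strand, H2BC6 at chr6:26183511-26183760 on the plus strand, H4C11 at chr6:27823842-27824091 on the plus strand, H2AX at chr11:119095466-119095715 on the minus strand and H2AJ at chr12:14774155-14774404 on the plus strand.
H2AC6: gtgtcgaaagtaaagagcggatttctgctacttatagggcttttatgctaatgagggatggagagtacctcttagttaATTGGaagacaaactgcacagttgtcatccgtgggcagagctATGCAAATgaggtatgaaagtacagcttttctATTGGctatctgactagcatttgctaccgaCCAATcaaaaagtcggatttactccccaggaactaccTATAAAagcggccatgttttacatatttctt
H2BC6: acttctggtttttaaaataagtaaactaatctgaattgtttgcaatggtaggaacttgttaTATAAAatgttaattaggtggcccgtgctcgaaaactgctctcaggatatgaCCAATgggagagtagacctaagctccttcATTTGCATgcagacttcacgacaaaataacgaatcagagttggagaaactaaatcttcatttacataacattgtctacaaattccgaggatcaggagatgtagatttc
H4C11: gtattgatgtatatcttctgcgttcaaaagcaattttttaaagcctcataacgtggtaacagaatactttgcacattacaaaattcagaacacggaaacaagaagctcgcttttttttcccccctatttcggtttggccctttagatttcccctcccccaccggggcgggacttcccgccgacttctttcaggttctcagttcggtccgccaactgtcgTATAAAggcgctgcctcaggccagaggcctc
H2AX: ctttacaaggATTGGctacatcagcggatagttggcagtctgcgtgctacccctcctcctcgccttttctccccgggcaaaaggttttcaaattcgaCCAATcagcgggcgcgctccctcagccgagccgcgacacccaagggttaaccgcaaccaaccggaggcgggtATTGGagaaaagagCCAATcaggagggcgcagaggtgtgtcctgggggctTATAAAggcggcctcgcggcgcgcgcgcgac
H2AJ: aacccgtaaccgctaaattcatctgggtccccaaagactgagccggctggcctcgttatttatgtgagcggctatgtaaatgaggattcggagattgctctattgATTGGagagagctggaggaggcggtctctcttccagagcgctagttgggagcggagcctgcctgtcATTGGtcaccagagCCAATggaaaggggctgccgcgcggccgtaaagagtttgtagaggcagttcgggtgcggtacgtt

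TATAAA began at position -31 from the start in H2AC6, in H4C11 and in the variant gene H2AX. H2AJ held 3 CCAAT matches and no TATAAA match, and H4C11 held a TATAAA match alone. The octamer was present in H2AC6 and H2BC6. In windows of 300 bases (250 before and 50 after the start), TATAAA was found in 65.6% of 61 promoters of 57 replication-dependent genes, in 21.1% of 19 promoters of 14 variant genes and in 11.5% of all 35116 promoters in the table. CCAAT was found in 83.6%, 73.7% and 34.6%, and ATTTGCAT in 37.7%, 5.26% and 1.77%, in the same order. The octamer matches lay mostly in H2B promoters (14 of 18) and H2A promoters (8 of 13). H4 promoters differed from those of the other families in CCAAT, which 3 of 13 H4 windows held. CACGTG and TTTGGCGC had no match in either class, against 7.26% and 0.652% of all promoters, and TTTCCCGC had 1 match in a replication-dependent promoter (1.64%, against 1.63% of all). In the histone promoters 0 matches of different motifs overlapped, and a match describes the sequence only. In 9 gene pairs on opposite strands the windows overlapped, 8 of them an H2A gene with an H2B gene. The other pair, H3C4 with H2BC7, is the same overlap as that of H2AC7 with H2BC7, since a window of H3C4 is also that of H2AC7. H2AC6 shares 255 bases of its window with H2BC4.

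The 6 arrays had median log2 signals of 5.53 to 5.96, with each HHT array below each vehicle array, although the deposited values were scaled to a common trimmed mean. All 18 hybridisation control probe sets had lower means in HHT, by 0.28 on average. After the lowest 40% of probe sets by mean were left out (level 4.80), 32768 probe sets were tested with limma, and 46.3% were called at an adjusted p under 0.05, 23.0% higher and 23.3% lower in HHT. The median change over all tested probe sets was -0.09. That median became 0.15 with arrays shifted to equal medians and 0.20 with hybridisation controls set equal, so directions of small changes are given below with those scalings. Of the markers of the line, KIT (14.83 in vehicle), MPO (14.39), RUNX1T1 (13.23) and CD34 (9.20) were bright, SPI1 was near the filter level (4.81) and CD33 was not measured. Of the markers of other cell types, CD3E (5.84), MS4A1 (5.36) and COL1A2 (4.56) were dim, ALB was not tested, and EPCAM was bright in both groups (13.69 and 12.93); its part in the results was not tested. In bulk RNA, fewer cells of a type (for example fewer cells in S phase) and less RNA per cell cannot be told apart.

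Variant histone transcripts mostly fell. Of 28 variant probe sets 21 were tested, 12 fell and 4 rose, and 5 did not pass the test, a share called of 76.2%. Variant probe sets were bright: 11 of the 21 lay in the brightest of 4 equal level classes of the tested probe sets, where 75.5% of all probe sets were called, and 9 of those 11 were called. The median change was -0.66. By gene, 5 of the 7 tested variant genes had a probe set that fell (MACROH2A1, H2AX, H2AZ1, H2AZ2 and H3-3A), H2AJ rose and H1-10 had no call. This counts a gene by any of its probe sets, and the same share over all genes was not computed. Measured by the brightest probe set alone, 24.2% of all genes were called lower. The 12 falls and 4 rises became 10 and 5 with equal medians, 11 and 6 with hybridisation controls set equal and 10 and 4 with quantile normalization.

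MACROH2A1, which encodes a histone H2A with a large globular macro domain that is found on the inactive X chromosome and other silent chromatin, had the largest changes of any tested variant gene. Probe set 229593_at read 11.35, 11.39 and 11.66 in vehicle and 8.97, 9.41 and 9.26 in HHT. It fell 4.77-fold (log2 change -2.25, SE 0.12, adjusted p = 2.54e-07). 214500_at read 10.20, 10.21 and 10.38 against 7.96, 8.33 and 8.45, a 4.05-fold fall (-2.02, SE 0.13, adjusted p = 8.19e-07). In both, every HHT array lay below every vehicle array. 226840_at fell by 1.53 on the log2 scale (2.89-fold), 214501_s_at by 1.08 (2.11-fold) and 207168_s_at, the brightest at 14.66 in vehicle, by 0.66 (1.59-fold). All 5 tested probe sets of the gene fell, also under each of the 3 other scalings, and 1558779_at and 1558780_a_at were too dim to test. The 5 differed among themselves in size: 229593_at lay 3.19 below 207168_s_at in vehicle and 4.78 below it in HHT.

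H2AX, the H2A form that is phosphorylated around DNA breaks, read 13.00, 12.90 and 12.99 in vehicle and 11.90, 11.89 and 11.82 in HHT on its brightest probe set, 205436_s_at. The groups did not overlap, and the signal fell 2.13-fold (-1.09, SE 0.06, adjusted p = 2.00e-07). 213344_s_at read 9.02, 9.17 and 9.08 against 8.24, 8.07 and 8.15 and fell 1.91-fold. The dimmer 212525_s_at and 212524_x_at had changes of -0.38 (adjusted p = 0.122) and -0.69 (adjusted p = 0.207), the same sign without a call.

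The 2 genes of H2A.Z, the variant found at promoters next to the transcription start, had several probe sets each. H2AZ2 fell on 212205_at, from 13.33, 13.23 and 13.36 to 12.38, 12.43 and 12.38 (1.88-fold, SE 0.06, adjusted p = 5.31e-07), and on 212206_s_at (1.86-fold, adjusted p = 4.72e-06). Its 202487_s_at (12.97 and 12.89, change -0.07) and 227085_at (10.51 and 10.63, change 0.13) were not called, so the probe sets of this gene disagreed. With equal hybridisation controls, 202487_s_at was called higher by 0.21 (adjusted p = 0.0241) and 227085_at by 0.41. H2AZ1 was among the brightest transcripts: 200853_at read 14.63, 14.61 and 14.56 in vehicle and 14.08, 14.13 and 14.19 in HHT, a 1.38-fold fall (adjusted p = 2.17e-05), and 213911_s_at fell 1.32-fold. Both H2AZ1 falls were lost with equal medians (-0.23 and -0.16) and with quantile normalization (-0.08 and -0.01), and that of 213911_s_at also with hybridisation controls set equal.

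H3-3A, 1 of the genes of the replacement form of H3 that is deposited outside replication, had 1 probe set of its own. 213826_s_at read 8.93, 8.92 and 8.99 in vehicle and 8.18, 8.03 and 8.30 in HHT and fell 1.71-fold (-0.78, SE 0.12, adjusted p = 0.000327), without overlap.

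H2AJ, an H2A variant that differs from canonical H2A at its C-terminal end, went the other way, and all 4 of its probe sets rose. 224301_x_at read 9.37, 9.33 and 9.32 in vehicle and 10.30, 10.21 and 10.21 in HHT (1.87-fold higher, SE 0.08, adjusted p = 6.24e-06). 225245_x_at read 9.58, 9.56 and 9.61 against 10.29, 10.52 and 10.33 (1.73-fold higher, adjusted p = 2.90e-05). Neither pair of groups overlapped, and both calls were kept under the other scalings. Both are _x_at probe sets, whose probes may also bind other transcripts. The part of other genes in their signal was not tested. The dim 228213_at (6.05 to 6.94, adjusted p = 0.0466) and 220936_s_at (6.16 to 7.04, with overlapping groups, adjusted p = 0.0411) were called by little: the first kept its call when vehicle replicate 1 was left out and lost it without any other array (adjusted p from 0.0768 to 0.134). The second was lost without HHT replicate 1 (0.155), HHT replicate 3 (0.0852), vehicle replicate 2 (0.109) or vehicle replicate 3 (0.115).

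H1-10, a linker histone variant, read 8.94, 8.64 and 9.02 in vehicle and 8.77, 8.68 and 8.85 in HHT and was not called (-0.11, adjusted p = 0.530). H1-7, H1-8 and MACROH2A2 had no probe set bright enough to test.

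**Figure D1:**
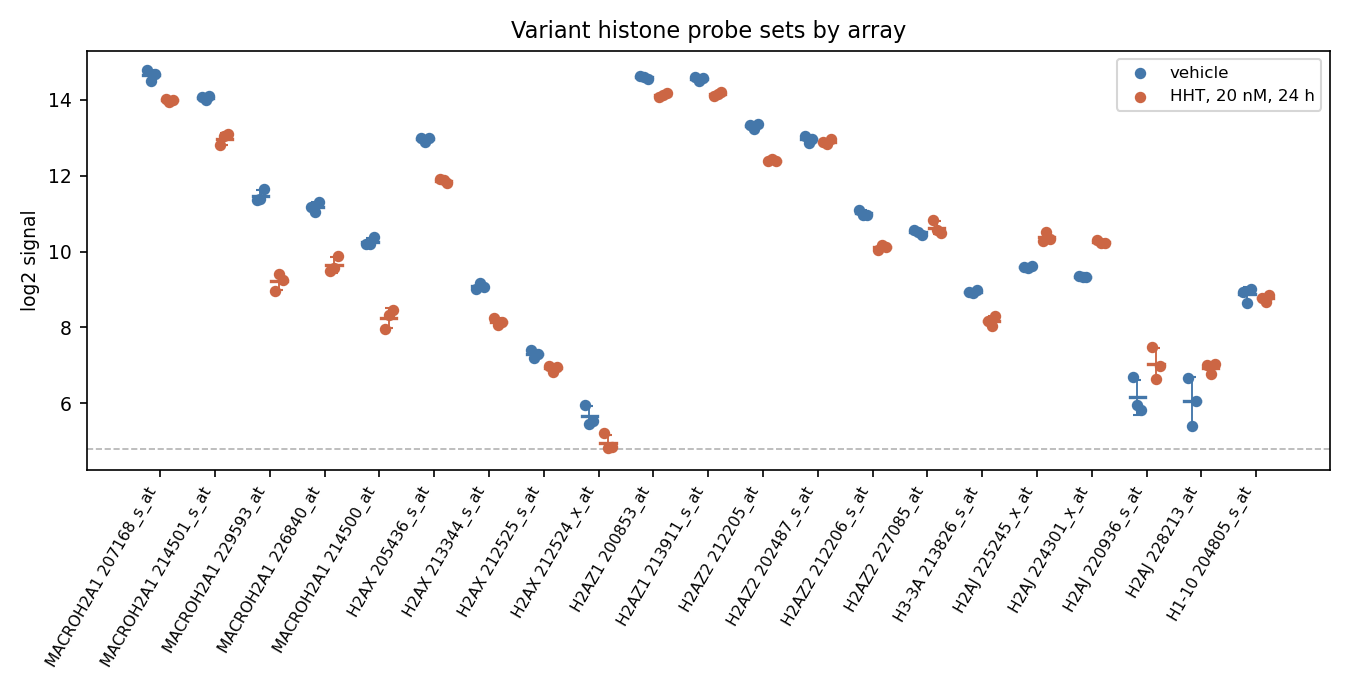
Log2 signal of the 21 tested variant probe sets on each array, ordered by gene. Points are arrays (3 vehicle, blue, and 3 HHT, orange), bars the group mean with its SD, and the dashed line the filter level of 4.80. MACROH2A1 on 229593_at sits near 11.47 in vehicle and 9.21 in HHT, and the H2AJ probe sets sit higher in HHT.

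Probe sets annotated to 1 replication-dependent histone gene each gave dim and mostly uncalled signals. Some shared probe sets of such genes were brighter, up to 14.92 in vehicle for 205967_at, which fell and is described below. The median vehicle level over the 50 probe sets was 5.44, against 9.21 for the variant class, and the brightest reached 9.36. Of the 50, 34 passed the filter, 3 rose, 3 fell and 28 were not called, a share called of 17.6%. Dim probe sets were called less often on the whole array: 19 of the 34 lay in the dimmest of the 4 level classes, where 10.8% of all were called, and 11 in the second, where 35.9% were. In the third level class (63.1% of all called), 4 of 4 replication-dependent probe sets and 5 of 6 variant ones were called. The error was larger too, with a median SE of 0.42 against 0.09 for variant probe sets. Of the 34, 6 passed the filter with the mean of 1 group below its level, and none of those 6 was called.

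H2AC6, an H2A gene of the large cluster on chromosome 6, read 5.77, 5.85 and 5.86 in vehicle and 7.06, 7.37 and 7.54 in HHT on 215071_s_at. It rose 2.82-fold (1.49, SE 0.24, adjusted p = 0.000432), and each HHT array was above each vehicle array. H4C11, an H4 gene, read 8.42, 8.53 and 8.48 in vehicle and 9.53, 9.16 and 9.41 in HHT on 214463_x_at and rose 1.85-fold (0.89, SE 0.12, adjusted p = 0.000122). Both rises were kept under the other scalings and without any 1 array. The H4C11 probe set is an _x_at one, whose probes may also bind other transcripts, so its rise may not be of H4C11 alone. Without _x_at and _s_at probe sets, 0 replication-dependent probe sets were called higher. H3C2, an H3 gene, rose on 208576_s_at from 6.01, 4.86 and 5.14 to 6.49, 6.74 and 6.32 (2.27-fold, adjusted p = 0.0248), and that call was lost without vehicle replicate 2 (0.94, adjusted p = 0.0689), vehicle replicate 3 (1.08, adjusted p = 0.0580), HHT replicate 1 (1.19, adjusted p = 0.0576) or HHT replicate 2 (1.07, adjusted p = 0.0993).

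The 3 falls were all in H2B genes and were small. They were the 3 H2B probe sets of the third level class, where 63.1% of all probe sets were called. The only other replication-dependent probe set in that class was 1 of H4. H2BC6 read 8.50, 7.91 and 8.25 in vehicle and 7.53, 7.65 and 7.72 in HHT on 208527_x_at (1.5-fold lower, -0.58, adjusted p = 0.0179). H2BC12L read 8.48, 8.72 and 8.62 against 8.14, 8.16 and 8.29 on 208579_x_at (1.32-fold lower, adjusted p = 0.0213). H2BC12, with the brightest probe set of 1 replication-dependent gene, read 9.33, 9.51 and 9.25 against 8.96, 9.0 and 9.16 on 209806_at (1.25-fold lower, adjusted p = 0.0330). The groups did not overlap in any of the 3. None of the 3 was called with equal medians (-0.35, -0.17 and -0.08) or hybridisation controls set equal (-0.30, -0.12 and -0.04), and each was lost without 1 or more single arrays, H2BC6 without vehicle replicate 1 (adjusted p = 0.0696) or HHT replicate 1 (0.0502), H2BC12L without vehicle replicate 2 (0.0751), vehicle replicate 3 (0.0503), HHT replicate 1 (0.0569) or HHT replicate 2 (0.0675), and H2BC12 without vehicle replicate 1 (0.0575), vehicle replicate 2 (0.118), HHT replicate 1 (0.0932) or HHT replicate 2 (0.0997). H2BC12L and H2BC12 are closely related genes, and _x_at names a probe set whose probes may also bind other transcripts, so the split of signal between them is uncertain.

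The brightest probe sets of the remaining families were not called. H1-2, a linker histone gene, read 6.20, 6.30 and 7.03 in vehicle and 6.57, 7.20 and 7.29 in HHT (0.51, adjusted p = 0.189). H2AC14 read 6.00, 7.12 and 7.37 against 7.02, 8.15 and 8.89 (1.19, SE 0.46, adjusted p = 0.0544), with overlap. H2AC14 was called higher in 7 of 15 alternatives, among them equal medians (adjusted p = 0.0236) and the replicate number as a block (0.000564). The 7 also included the fits without HHT replicate 1 (0.00509) and without vehicle replicate 3 (0.0410). H3C7 read 7.02, 6.72 and 6.94 against 7.34, 7.27 and 7.13 (0.35, adjusted p = 0.164), without overlap. With hybridisation controls set equal, H1-2 (0.80) and H3C7 (0.64) were called higher, and H3C7 also with equal medians (0.59). By family, the counts of tested probe sets that rose and fell were 0 and 0 of 5 for H1, 1 and 0 of 7 for H2A, 0 and 3 of 8 for H2B, 1 and 0 of 6 for H3 and 1 and 0 of 8 for H4. At an unadjusted p under 0.05 from limma they were 1 and 0, 2 and 0, 0 and 3, 1 and 0, and 3 and 1, in the same order. Of the uncalled ones with an array below the filter level, H4C9 on 214634_at was at least 2.12-fold lower in HHT with such arrays set to that level (adjusted p = 0.0668). It was 1 of the 6 tested with a group mean below that level, here that of HHT, so it passed the filter through its vehicle arrays. Set likewise, H4C8 on 208180_s_at was at least 2.02-fold higher (adjusted p = 0.0757), with overlapping groups. The other tested probe set of H4C8, 232035_at, was brighter in vehicle and changed by -0.06 without a call. H1-4 on 208553_at, also set likewise, was at least 2.05-fold higher (adjusted p = 0.0901), again with overlap. The split of 3 rises and 3 falls depended on the scaling: it was 8 and 0 with equal medians, 10 and 0 with hybridisation controls set equal and 4 and 3 with quantile normalization.

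**Figure D2:**
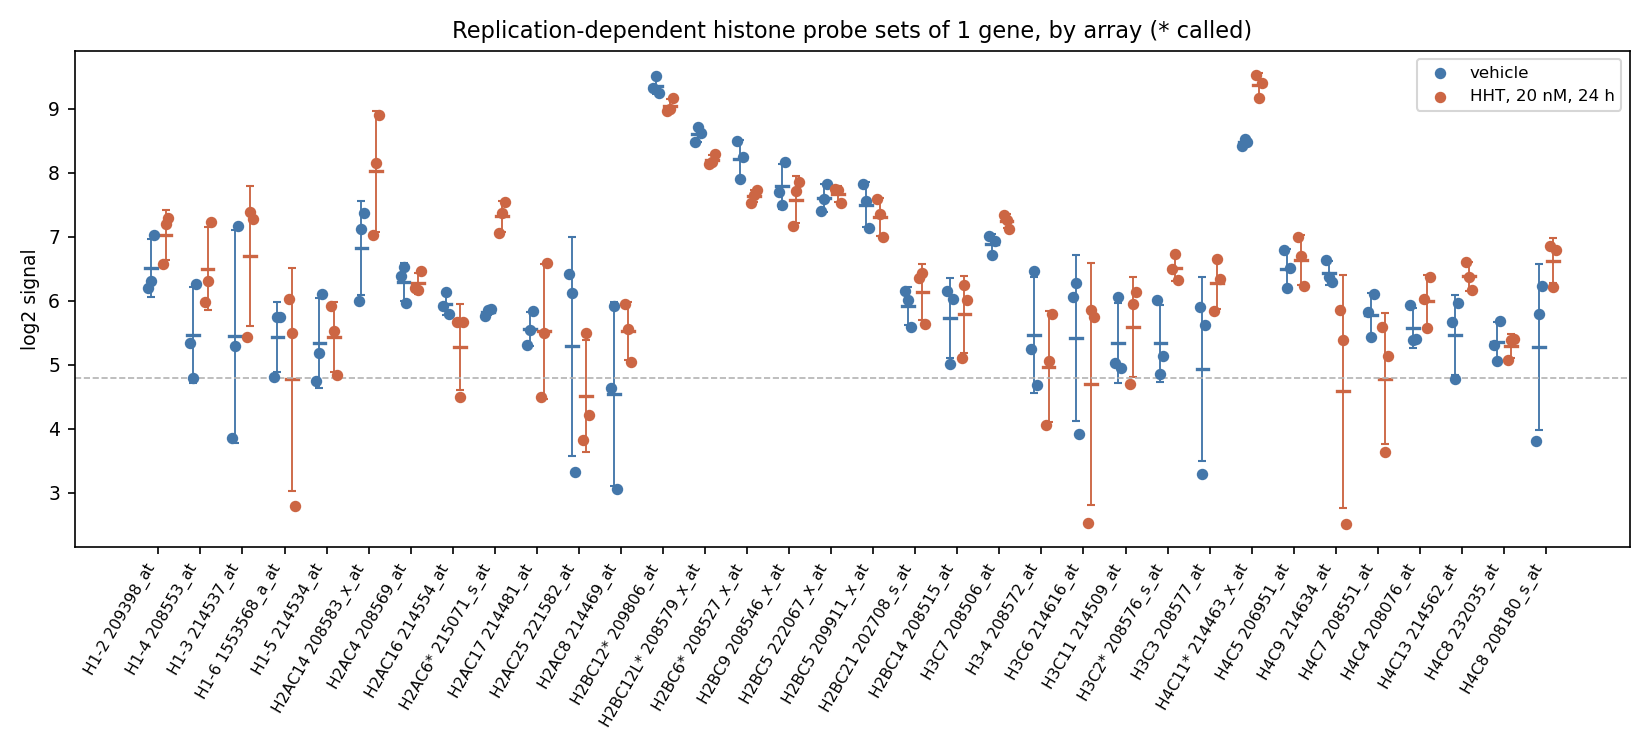
Log2 signal of the 34 tested replication-dependent probe sets on each array, by family from H1 to H4, with the group mean and SD. An asterisk marks a call, and the dashed line is the filter level of 4.80. Most probe sets lie near that line with wide spread, while H2AC6 and H4C11 lie higher in HHT without overlap.

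Set side by side, the replication-dependent class had a median change of 0.08 over its 34 tested probe sets and the variant class -0.66 over its 21, a difference of 0.74, with -0.09 over all tested probe sets. By level class of all tested probe sets, from dimmest to brightest, the median was -0.27, -0.14, 0.06 and -0.01. The class medians count probe sets, and 5 of the 21 variant ones were of MACROH2A1. Over all 50 and all 28 members, tested or not, the plain medians were -0.02 and -0.58. Over the alternatives run, that difference ranged from 0.51 to 0.98. Array by array, the median level of the variant probe sets was 10.56, 10.52 and 10.44 in vehicle and 10.03, 10.18 and 10.13 in HHT. That of the replication-dependent ones was 6.00, 6.09 and 6.07 in vehicle and 6.11, 6.34 and 6.36 in HHT. The variant medians were lower on each HHT array than on any vehicle array, and the replication-dependent medians were higher. Over all 50 replication-dependent members, tested or not, the array medians overlapped, at 5.67, 5.48 and 5.72 in vehicle and 5.71, 5.81 and 5.70 in HHT. No p is given, since the classes were compared with results of these data known, and the classes differ in level.

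**Figure D3:**
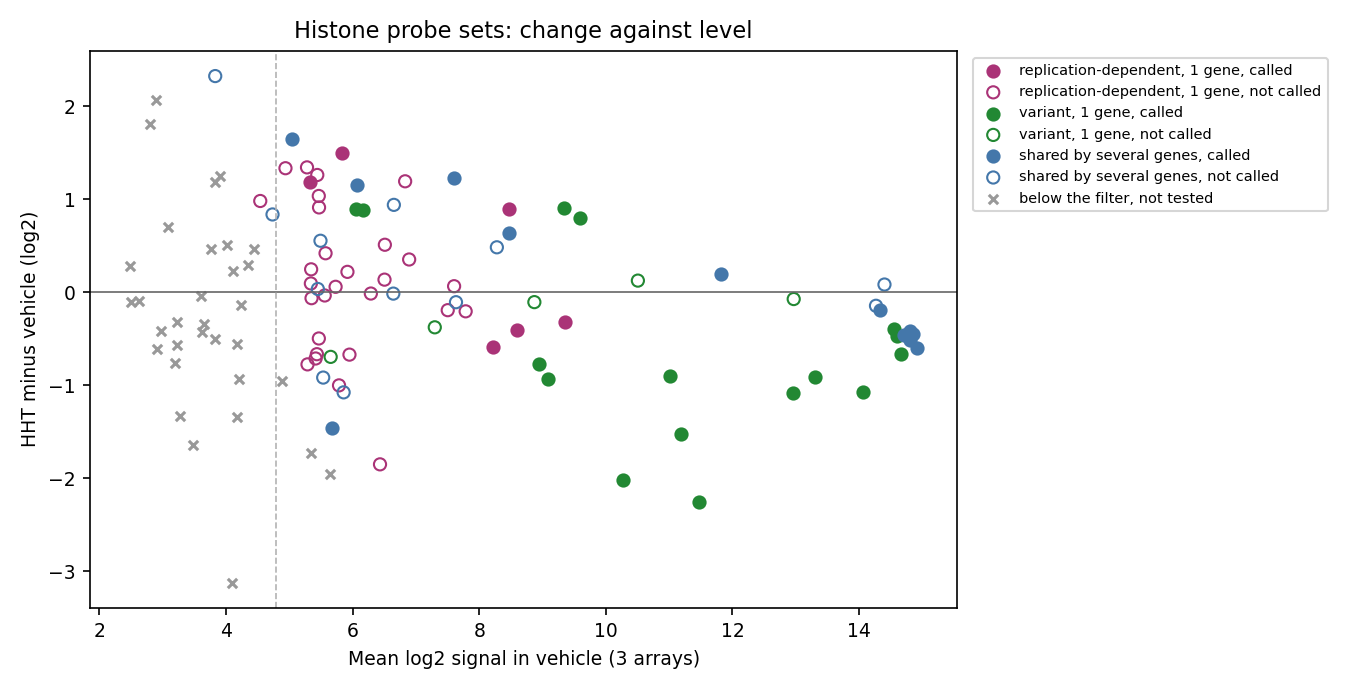
HHT minus vehicle change (log2) against mean log2 signal in vehicle for the 111 histone probe sets, with those not tested as grey crosses placed by the plain difference of means. Filled points are called, open points are not, and the dashed line is the filter level of 4.80, which applied to the mean over all 6 arrays. Variant probe sets (green) lie mostly above 8 and below 0, and replication-dependent ones (purple) mostly between 5 and 7.

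Probe sets shared by several genes were called about as often as probe sets in general. Of 29, 24 were tested, 5 rose and 7 fell, a share called of 50% against 46.3% of all probe sets. Among the 20 shared by replication-dependent genes, 16 were tested, 4 rose and 2 fell. Among the 9 shared by variant genes, 8 were tested, 1 rose and 5 fell. All 8 lay in the brightest level class, where 75.5% of all probe sets were called, and 75% of the 8 were; the difference between these subgroups was not tested. Of the 24, 5 had a group mean below the filter level, and 1 of these, 214516_at, was called lower. The 5 rises and 7 falls became 9 and 2 with equal medians, 9 and 2 with hybridisation controls set equal and 8 and 2 with quantile normalization.

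H4 is the least varied of the core histones, and 14 of its genes encode the same protein and shared 1 annotation on 5 probe sets, which disagreed. 205967_at, the member with the highest vehicle mean, read 15.07, 14.86 and 14.84 in vehicle and 14.32, 14.27 and 14.38 in HHT and fell 1.51-fold (-0.60, SE 0.07, adjusted p = 2.69e-05). 208580_x_at read 7.83, 7.20 and 7.81 against 8.91, 8.82 and 8.77 and rose 2.34-fold (1.22, SE 0.18, adjusted p = 0.000210). Groups overlapped in neither, and both calls were kept under the other scalings. 207046_at rose from 3.97, 5.40 and 5.75 to 6.44, 6.92 and 6.72, at least 2.59-fold with the array below the filter level set to it (adjusted p = 0.0140), and was not called without HHT replicate 2 (adjusted p = 0.0597). 214516_at fell from 6.09, 5.57 and 5.39 to 3.88, 4.47 and 4.31, at least 1.85-fold with the HHT arrays at the filter level (adjusted p = 0.0370); it was not called under any other scaling (adjusted p from 0.0845 to 0.0992), nor without HHT replicate 1 (0.0770), 2 (0.0537) or 3 (0.0628) or vehicle replicate 2 (0.0694), and without vehicle replicate 1 it did not pass the filter. The HHT mean of 214516_at lay below the filter level, so this probe set passed the filter through its vehicle arrays. The fifth probe set was too dim to test.

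In each of 2 shared H2A annotations 1 probe set rose and the rest were not called. 207156_at, 1 of 2 tested probe sets shared by 6 H2A genes, read 5.46, 6.37 and 6.39 in vehicle and 7.25, 7.25 and 7.17 in HHT (2.22-fold higher, adjusted p = 0.00736). 214290_s_at, 1 of 3 tested for H2AC18 and H2AC19, read 8.64, 8.06 and 8.71 against 9.06, 9.02 and 9.22 (1.55-fold higher, adjusted p = 0.00953). Neither pair of groups overlapped. Of the uncalled ones, 214542_x_at of the 6 genes had a change of 0.94 (adjusted p = 0.111), and those of H2AC18 and H2AC19 had opposite signs, 0.48 for 218280_x_at (adjusted p = 0.0522) and -0.92 for 218279_s_at (adjusted p = 0.221). No probe set shared by H2B genes alone was called by limma, of 4 tested, and 1 of them had an unadjusted p under 0.05.

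The replacement H3 genes H3-3A and H3-3B share 2 annotations, both very bright. The 4 probe sets annotated also to the pseudogene H3P6 all fell, by 0.51 (208755_x_at), 0.46 (211940_x_at), 0.45 (213828_x_at) and 0.42 (200080_s_at) on the log2 scale. 208755_x_at read 14.94, 14.74 and 14.72 in vehicle and 14.25, 14.31 and 14.31 in HHT (1.43-fold lower, adjusted p = 5.56e-05). The call of 208755_x_at was kept under the other scalings and those of the other 3 were lost under each (changes from -0.22 to -0.03). Of the 4 annotated also to the microRNA gene MIR4738, 211998_at rose by 0.20 (adjusted p = 0.0196), 211999_at fell by 0.19 (adjusted p = 0.0242) and 211997_x_at and 209069_s_at were not called (-0.15 and 0.08). The direction of 211999_at turned under every other scaling, to 0.05 with equal medians, 0.09 with hybridisation controls set equal and 0.19 with quantile normalization (adjusted p = 0.00994). Without vehicle replicate 2 (0.0608), HHT replicate 2 (0.0735) or HHT replicate 3 (0.0898) the probe set was no longer called, and neither was 211998_at without vehicle replicate 2 (0.0731), HHT replicate 2 (0.0717) or HHT replicate 3 (0.0536).

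**Figure D4:**
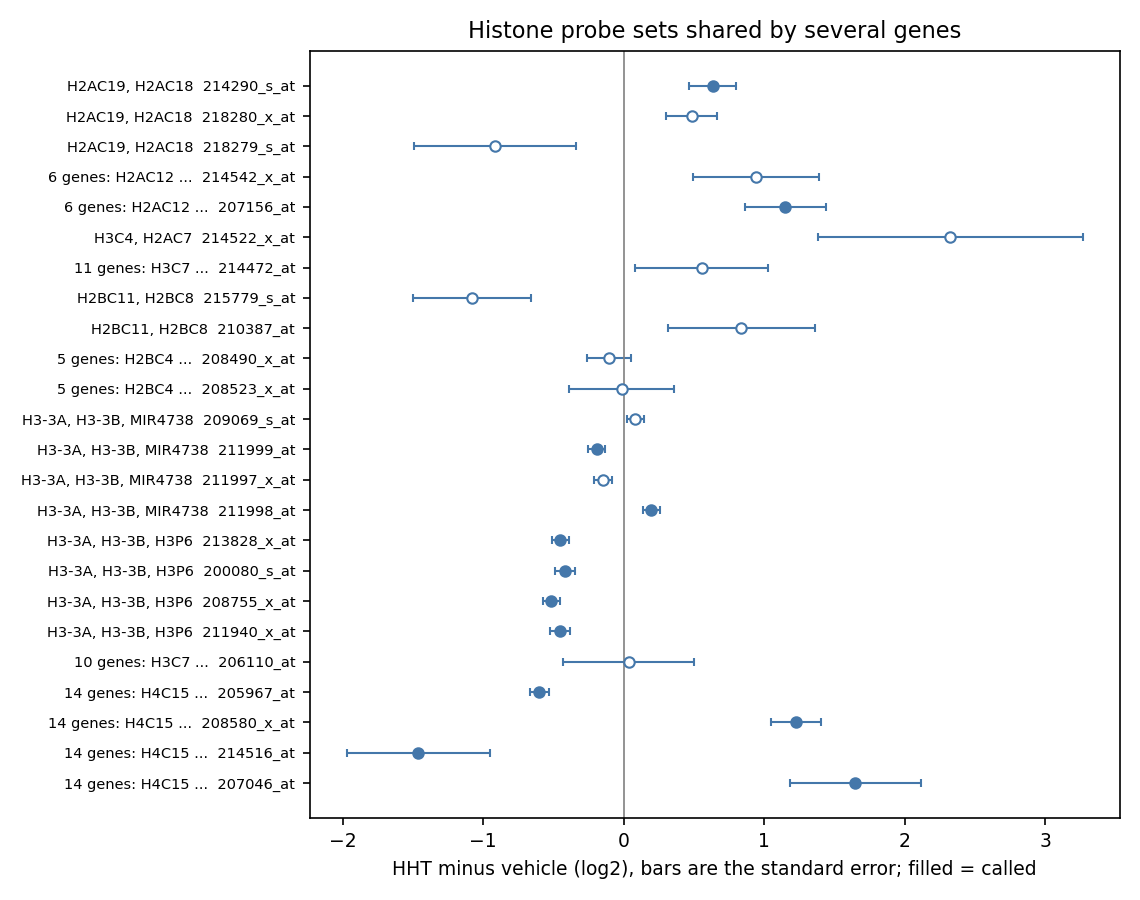
Change between HHT and vehicle (log2) of the 24 tested probe sets shared by several genes, with the SE of the limma fit; filled points were called. The H4 probe sets of the 14-gene annotation lie on both sides of 0, the outer 2 of them plotted from measured values that include arrays below the filter level, and those of H3-3A and H3-3B from -0.51 to 0.20.

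Histone transcripts depend on factors for transcription, 3′ end formation and decay, and histone proteins on chaperones. Each gene of these lists is given by its brightest tested probe set; over all genes on the array measured so, 29.6% were called higher and 24.2% lower, with a median change of -0.00. That share is not matched for level, and many listed genes were bright. The lowest vehicle mean was 10.60 among the S-phase genes and 9.07 among the histone transcription genes. In the third and the brightest level class, 63.1% and 75.5% of all probe sets were called in either direction. Of 8 measured histone transcription genes 2 rose and 3 fell. The rises were 1 with quantile normalization and 1 with any single array but vehicle replicate 1 left out. CCNE1 and CCNE2, the cyclins that activate CDK2 at S-phase entry, fell by 1.55 and 1.22 on the log2 scale (adjusted p = 6.41e-07 and 1.61e-06). NPAT, the coactivator of the histone clusters (-0.08), and CASP8AP2, a partner of it in histone locus bodies (-0.10), were not called (adjusted p = 0.618 and 0.330).

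Of 13 genes for 3′ end processing 5 rose and 4 fell, with a median of 0.03. The rises were 8 (and falls 3) with hybridisation controls set equal, and 3 without vehicle replicate 2. SLBP, the stem-loop binding protein, read 13.46 in vehicle and 12.82 in HHT and fell by 0.64 (adjusted p = 4.22e-06), and the scaffold SYMPK and SRRT fell by 1.14 and 0.91. The SYMPK fall rests on 1 of its 3 probe sets, as neither of the other 2 was called. Of 10 genes for translation and decay of histone mRNA 5 rose and 0 fell in the limma fit (also 5 and 0 at an unadjusted p under 0.05), XRN1, a 5′ to 3′ exonuclease, by 1.43 (adjusted p = 7.29e-08) and TUT7, a uridylyl transferase, by 1.15. The 5 rises became 6 with equal medians, 7 with hybridisation controls set equal and 5 with quantile normalization.

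Many chaperones that serve replication fell. Of 17 genes for replication-coupled chaperones and import 13 fell and 1 rose, with a median of -0.52. IPO4, an importin of H3 and H4, fell by 1.68 (adjusted p = 3.22e-07) and SUPT16H, a FACT subunit, by 1.18 (adjusted p = 1.29e-07), while ASF1A rose by 0.83. The 1 other tested probe set of SUPT16H was not called. The falls were 8 with equal medians, 9 with hybridisation controls set equal and 11 with quantile normalization. Of 13 genes listed as variant chaperones and exchangers 2 rose and 3 fell, with a median of 0.05. UBN2 was higher by 1.19 and HIRA, of the complex that deposits replacement H3, lower by 0.76. The 13 include CENPA, itself an H3 variant, which was not called (0.15). The rises were 5 with equal medians and 7 with hybridisation controls set equal. Of 12 S-phase genes 11 fell and 0 rose in the limma fit (12 and 0 at an unadjusted p under 0.05), with a median of -0.75, led by MCM3 (-1.21) and GINS2 (-1.12), and 10 or 11 fell under the other scalings.

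**Figure D5:**
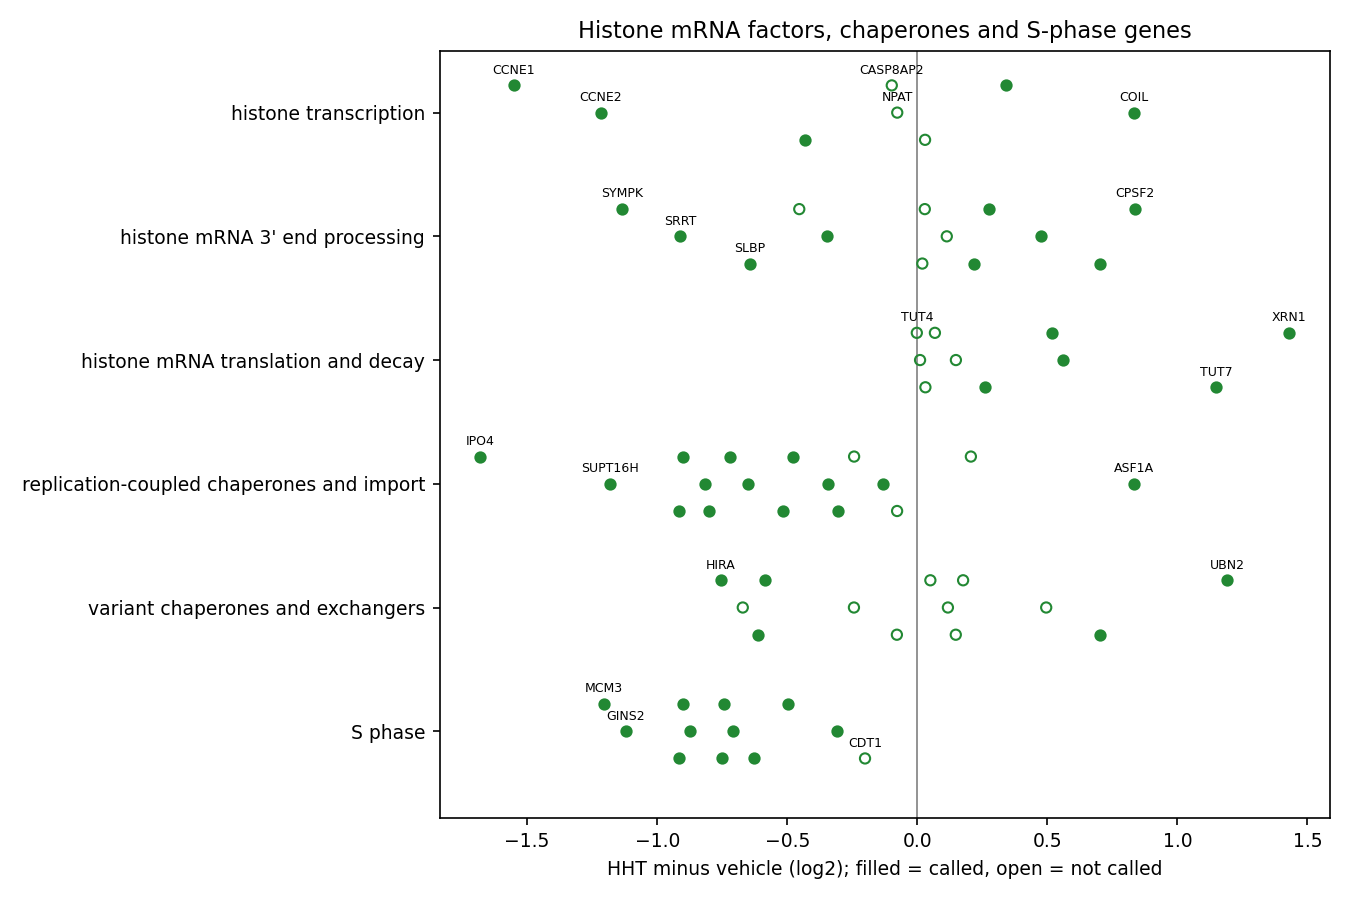
Change between HHT and vehicle (log2) of each measured gene of the 6 lists, 1 point a gene, filled where called. S-phase genes lie between -1.21 and -0.20, and replication-coupled chaperones mostly below 0.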

How the data were processed

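Each probe set has 1 deposited log2 signal per array; the submitters' processing notes name MAS5, whose version is not given in the sources used. On every array the mean antilog after trimming 2% at each end was about 500.1, and the lowest values stood at 0. Probe sets were named from the platform annotation (41097 with 1 gene, 1801 with several), with symbols updated through RefSeq. Samples were grouped by the labels, 3 vehicle and 3 HHT arrays, and no 2 arrays held identical values. The number of arrays limits the precision.

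After 62 control probe sets and the lowest 40% by mean over the 6 arrays were left out, a linear model of the groups was fitted across all probe sets with limma 3.58.1 in R 4.3.3 (eBayes with a trend on level), with Benjamini-Hochberg adjustment over all 32768 and calls at an adjusted p under 0.05. The fit was tested on simulated data. Folds against a group mean or array below the filter level use that level and are given as at least that size. The text names called members, every tested variant gene, the brightest replication-dependent probe set of each family and the 4 brightest shared probe sets. Of each gene list it names the 2 called genes of largest change, with SLBP, NPAT and CASP8AP2. ASF1A was added after its value was seen. The uncalled H1-4, H4C8 and H4C9 and some uncalled shared probe sets were also named outside these rules. Members, classes and lists were chosen with earlier results of these data known. Alternatives were 3 other scalings, filters of 0 and 60%, 64 added to the antilog signal, no variance trend, a replicate block, each array left out, a log2 threshold of 1, probe sets without _x_at and _s_at, and gene means.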

Additional observations from a re-analysis of the deposited data

How the results depend on the processing

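Under the alternatives run for the classes (the gene means were run for the gene lists alone, and medians do not depend on the log2 threshold), the variant class kept a median below 0 and more falls than rises, and the replication-dependent median stayed above that of the variant class. The number behind each direction moved with the scaling. With equal hybridisation controls, 10 replication-dependent probe sets were called higher and 0 lower (median 0.36), the variant median was -0.38, and 9 shared probe sets were called higher and 2 lower (median 0.29). With equal medians these were 8 and 0 (0.32), -0.43, and 9 and 2 (0.25). With quantile normalization the medians were 0.27 (replication-dependent), -0.32 (variant) and 0.21 (shared), the difference between the first and second was 0.59, and 8 shared probe sets were called higher and 2 lower. The share of all calls that were higher was 49.6% as deposited, 70.3% with medians made equal and 72.9% with the spiked controls made equal. 211999_at turned to 0.047, 0.092 and 0.19 with equal medians, with hybridisation controls made equal and with quantile normalization, and 202487_s_at of H2AZ2 turned to 0.21 with equal hybridisation controls; these fits differ from the first in the scaling alone.

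Without a filter, the replication-dependent median was -0.024, the variant median -0.58 with 2 rises, the shared median 0.084 and the difference 0.56; with 60% left out, the shared median was -0.060. With no variance trend, 2 variant probe sets rose. With 64 added, 5 replication-dependent probe sets rose, the variant median was -0.46 and the difference 0.51. With a log2 change of at least 1 also required, replication-dependent falls were 0, variant rises and falls 0 and 5, and shared rises and falls 3 and 1. Without _x_at and _s_at probe sets, the rises and falls were 0 and 1 (replication-dependent), 1 and 5 (variant, median -0.91) and 3 and 3 (shared, median 0.20), and the difference was 0.97. The causes were not tested.

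Without 1 array in turn, replication-dependent rises ranged from 2 to 7, falls from 1 to 3 and the median from 0.034 to 0.30. Variant rises ranged from 2 to 4 and the median from -0.74 to -0.54. Shared rises ranged from 3 to 7, the median from -0.13 to 0.052 and the difference of medians from 0.63 to 0.98. With the replicate number as a block, 6 replication-dependent probe sets rose and 15468 of all probe sets were called against 15184. Same-numbered arrays deviated together little (correlations 0.07, -0.01 and 0.05), and not every array correlated best with its own number. With 3 arrays a group, this cannot settle whether the numbers pair the samples, and the main fit did not pair them. With each gene's probe sets averaged in place of the brightest, rises were 1 for histone transcription, 3 for 3′ end processing and 1 for variant chaperones. Dim probe sets limit the replication-dependent class.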
